A study of Mus musculus with 18 samples.

Results

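The genes described here are 36 genes of glycolysis and of the response to low oxygen, chosen by name from a table of 54532 genes. The choice was made with earlier results of these data known. Of the 36, 20 encode glucose transporters, glycolytic enzymes and the enzymes and carrier that handle pyruvate and lactate. The other 16 encode oxygen sensors and targets of the hypoxia-inducible factors. The mRNA of all 36 was counted by RNA sequencing in 18 mouse tumours that arose from PB2, a mouse breast cancer cell line. Of these, 8 tumours had the genotype p95HER2, from PB2 cells made to overexpress a truncated form of the receptor HER2, and 10 had the genotype EV, the set they were compared with. The mice of both groups received the same doxycycline diet, DOX625. The strain, sex and age of the mice, the promoter of the transgene, and whether the line was 1 clone were not given in the sources used here. Nothing in the labels says that each tumour came from its own mouse. The tests treat the tumours as independent, and the p-values would be too small if some shared a mouse. All 36 genes passed the filter on low counts, as did 17123 genes in all.

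Glycolysis converts glucose to pyruvate in the cytosol, and lactate dehydrogenase turns pyruvate into lactate, which leaves the cell together with a proton. When oxygen is scarce the prolyl hydroxylases no longer mark the alpha subunit of hypoxia-inducible factor for destruction, and the factor then raises the transcription of glucose transporters, most glycolytic enzymes, carbonic anhydrases and angiogenic signals. Breast tumours and other solid tumours commonly express these genes strongly in poorly perfused regions, and growth factor receptor signalling through PI3K and mTOR is known to raise several of them as well.

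The DNA letters that hypoxia-inducible factors are known to bind have the core ACGTG or GCGTG. Both were searched, on both strands, in the 250 bases before the start of each gene in the RefSeq promoter windows of GRCm38.p6, which held 33 of the 36 genes. At least 1 core was present in 25 of the 33 windows (75.8%) and in 38.6% of all 27025 windows, and ACGTG alone in 16 (48.5%) against 16.6% of all windows. An ACGTG inside the E-box CACGTG is read on both strands and counts in both orientations. A match is a string of letters, not a measured binding site. The windows below are those of 4 of the genes that differed between the groups (Car12, Car9, Aldoc and Slc16a3). Those of Ldha and Pgk1, 2 widely used hypoxia-induced genes that were not called, are shown as well. Hk1 and Gapdh also differed between the groups and are not shown. They read 5′ to 3′ on the plus strand, with either core or its reverse complement in capitals. For Car12 (chr9:66713536-66713685), Ldha (chr7:46845654-46845803) and Pgk1 (chrX:106186950-106187099) the 150 bases before the start are shown. For Car9 (chr4:43506995-43507024), Aldoc (chr11:78323010-78323039) and Slc16a3 (chr11:120949034-120949063), whose windows overlap annotated exons of the gene, 30 bases around the match are shown.
Car12: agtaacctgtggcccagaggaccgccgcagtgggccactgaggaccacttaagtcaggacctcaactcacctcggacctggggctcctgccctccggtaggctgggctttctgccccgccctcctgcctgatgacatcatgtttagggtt
Car9: cctatttccgatgCACGTacagcccgtcca
Aldoc: tccacctctgaggGCGTGgccttaccctag
Slc16a3: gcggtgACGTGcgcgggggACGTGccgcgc
Ldha: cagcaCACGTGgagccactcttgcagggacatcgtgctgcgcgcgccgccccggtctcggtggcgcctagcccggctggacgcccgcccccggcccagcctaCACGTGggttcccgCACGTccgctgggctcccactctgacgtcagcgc
Pgk1: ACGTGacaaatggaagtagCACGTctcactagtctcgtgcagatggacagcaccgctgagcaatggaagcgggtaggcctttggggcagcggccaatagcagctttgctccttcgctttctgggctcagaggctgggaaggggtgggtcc

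Car12, the gene with the largest rise among the 36, held no core in its window. Of the called genes not shown, Hk1 held no core either, and Gapdh held GCGTG but not ACGTG. The Car9 match began 18 bases before the RefSeq start and the Aldoc match 50 bases before it. The Slc16a3 window held 2 copies of ACGTG, 27 and 14 bases before the start. In the Ldha window 5 matches were found, 4 of them from 2 copies of CACGTG, and in the Pgk1 window 2.

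Libraries held 32686558 to 34804640 counts in p95HER2 tumours and 35030920 to 38464541 in EV tumours, so the totals did not overlap. The numbers in the tumour tags also separated the groups, with every p95HER2 tumour below every EV tumour and p95HER2 1 far below all the others. Neither total nor tag order can be told apart from group. Reads counted under mouse Erbb2, which encodes HER2, checked the labels: 122, 143 and 231 CPM in p95HER2 tumours, against 60.4, 68.1 and 74.9 CPM in EV tumours, with no overlap. All 12 luminal epithelial markers were measured, at a mean log2(CPM + 0.5) of 6.65 to 7.17 in p95HER2 tumours and 6.56 to 7.29 in EV tumours. Single markers did differ. At an adjusted p under 0.05 by edgeR 2 of the 12 were higher in p95HER2 tumours and 1 lower. Their log2 fold changes ran from -1.20 to 1.03. Of 9 basal epithelial markers 3 were higher and 0 lower, beside 10.2% of all genes in either direction. Levels in CPM were scaled by TMM, the normalization of edgeR.

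In p95HER2 tumours 5 of the 36 genes were higher and 1 was lower at a Benjamini-Hochberg (BH) adjusted p under 0.05 (edgeR quasi-likelihood test). Of all 17123 genes tested, 10.2% were called, 5.73% higher and 4.45% lower, against 16.7% of the 36 genes. Because the 36 were chosen with earlier results of these data known, the comparison of these shares is not independent evidence about the set. The genes called higher were the carbonic anhydrases Car12 and Car9, the aldolase Aldoc, the hexokinase Hk1 and the dehydrogenase Gapdh. The gene called lower was Slc16a3, which encodes the lactate carrier MCT4. The calls of Car12, Car9, Aldoc and Hk1 were kept in each of the 18 fits that left out 1 tumour. No change was large: the log2 fold changes of the 36 genes, p95HER2 minus EV, ran from -0.47 for Slc16a3 to 0.50 for Car12, with a median of 0.06 against -0.01 over all genes tested. The sign was positive for 25 of the 36. At an unadjusted p under 0.05 by edgeR there were 13 of the 36 and 4502 of all 17123 genes. For none of the 36 did the groups separate completely, as they did for 0.788% of all genes, 0.677% with p95HER2 higher and 0.111% with p95HER2 lower.

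**Figure D1:**
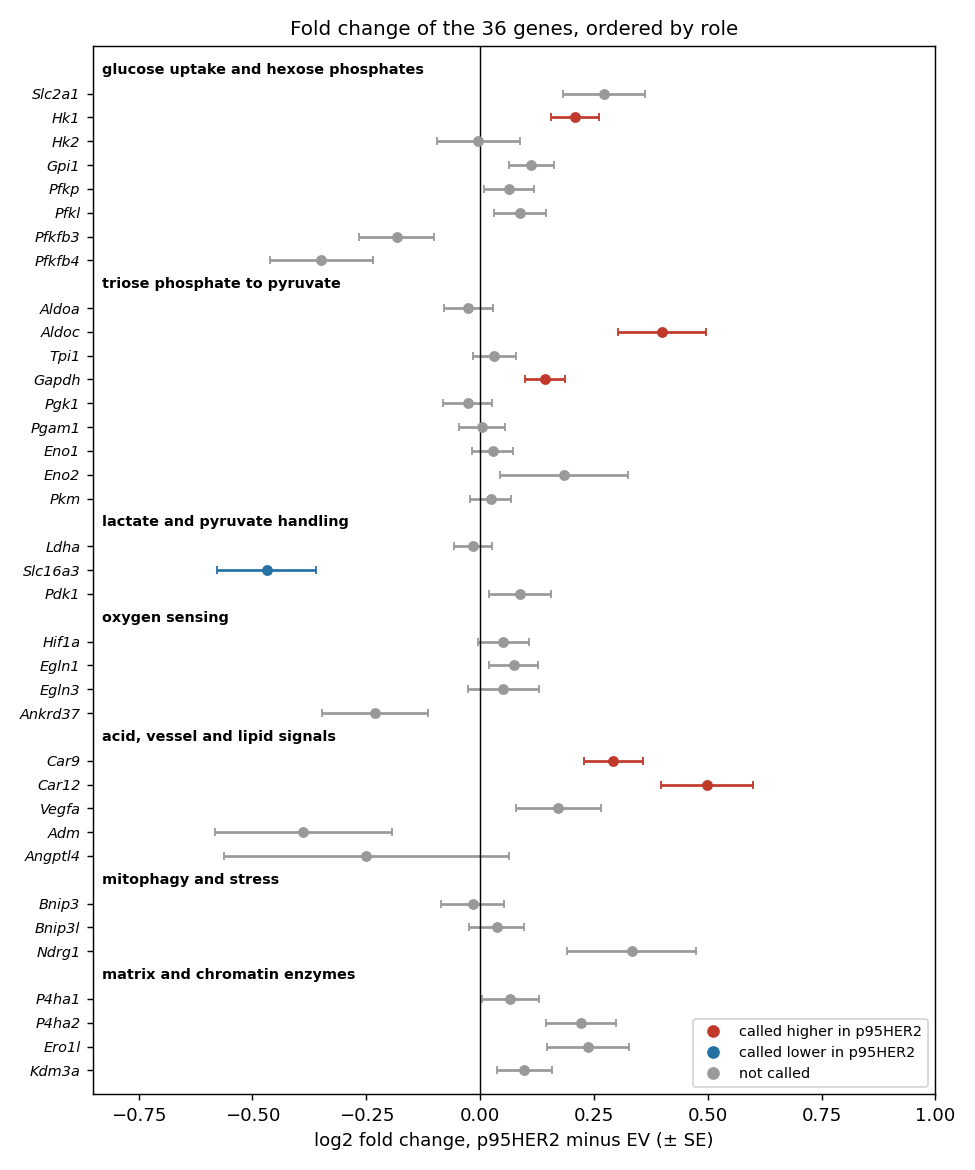
Log2 fold change (horizontal axis, p95HER2 minus EV) of each of the 36 genes with its SE as bars, grouped by role; 8 p95HER2 and 10 EV tumours. The 5 red points are the genes called higher and the blue point, Slc16a3 at -0.47, the gene called lower, while most glycolytic enzymes lie close to 0.

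Glucose enters through Slc2a1, the transporter GLUT1, and is trapped by hexokinases. Hk1 (chromosome 10, 62268855 to 62379908, mm10), the widely expressed hexokinase of the outer mitochondrial membrane, was higher in p95HER2 tumours. Its lowest, median and highest values were 288, 335 and 372 CPM in p95HER2 tumours, against 249.7, 284 and 314 CPM in EV tumours. All 8 p95HER2 tumours exceeded the EV median of Hk1 and 5 exceeded the highest EV tumour (log2 fold change 0.21 with an SE of 0.05, BH-adjusted p = 0.0145 by edgeR). Slc2a1 had 199, 241 and 279 CPM in p95HER2 tumours, against 144, 207 and 247 CPM in EV tumours. Its log2 fold change was 0.27 (SE 0.09), and with an edgeR BH-adjusted p of 0.0577 it missed the threshold. Of the p95HER2 tumours 7 were above the EV median of Slc2a1, and the lowest tumour of all was EV 4. DESeq2 and limma voom called Slc2a1 higher (adjusted p = 0.0357 and 0.0438), as did edgeR without EV 3, EV 8, EV 10 or p95HER2 3 (adjusted p = 0.0484, 0.0290, 0.0413 and 0.0322).

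Hk2, the hexokinase best known as a hypoxia and growth factor target, was not called. Its lowest, median and highest values were 67.4, 85.3 and 90.1 CPM in p95HER2 tumours, against 59.3, 82.8 and 102 CPM in EV tumours (log2 fold change -0.0042 with an SE of 0.09, BH-adjusted p = 0.985 by edgeR). The EV tumours spanned the whole range of the p95HER2 tumours for Hk2, with EV 1 and EV 7 at its ends. Gpi1, which isomerises glucose 6-phosphate, had a log2 fold change of 0.11 (SE 0.05, adjusted p = 0.147). The phosphofructokinase genes Pfkp and Pfkl, which commit sugar phosphate to glycolysis, had 0.06 (SE 0.05, adjusted p = 0.497) and 0.09 (SE 0.06, adjusted p = 0.356). Pfkfb3 and Pfkfb4 make and remove the sugar bisphosphate that activates phosphofructokinase, and both had negative values. Pfkfb3 had 52.0, 59.2 and 63.2 CPM in p95HER2 tumours, against 47.2, 68.5 and 79.1 CPM in EV tumours (log2 fold change -0.18 with an SE of 0.08, BH-adjusted p = 0.159 by edgeR). Pfkfb4 had 5.28, 5.87 and 8.34 CPM in p95HER2 tumours, against 5.61, 7.68 and 9.67 CPM in EV tumours, and all p95HER2 tumours but p95HER2 6 were below the EV median (log2 fold change -0.35 with an SE of 0.11, BH-adjusted p = 0.0541 by edgeR). Pfkfb4 was called lower by DESeq2 (adjusted p = 0.0230) and by limma voom (adjusted p = 0.0141). In edgeR it was called without EV 1, EV 3, EV 10 or p95HER2 6 (adjusted p = 0.0198, 0.0447, 0.0427 and 0.0187), and Pfkfb3 was called lower without EV 4 (adjusted p = 0.0328).

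Of the 9 genes between triose phosphate and pyruvate, 2 were called, both higher, beside 10.2% of all genes called in either direction. Aldoc (chromosome 11, 78322968 to 78327781, mm10) encodes the aldolase isozyme best known from brain. Its lowest, median and highest values were 434, 514 and 612 CPM in p95HER2 tumours, against 273, 391 and 483 CPM in EV tumours. All 8 p95HER2 tumours were above the EV median and 6 above the highest EV tumour, with p95HER2 7 and 1 highest and EV 1 and 10 lowest (log2 fold change 0.40 with an SE of 0.10, BH-adjusted p = 0.0133 by edgeR). Aldoa, the main aldolase of these tumours per length of transcript, had mean levels of 532 CPM per kilobase in p95HER2 tumours and 542 CPM per kilobase in EV tumours. Aldoc had 158 CPM per kilobase in p95HER2 tumours and 119.8 CPM per kilobase in EV tumours. The log2 fold change of Aldoa was -0.03 (SE 0.05, adjusted p = 0.808).

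Gapdh, which oxidises glyceraldehyde 3-phosphate, had the highest level per length of the 36 genes, 823 CPM per kilobase in p95HER2 tumours and 745 CPM per kilobase in EV tumours. Its lowest, median and highest values were 3207, 3375 and 3729 CPM in p95HER2 tumours, against 2745, 3088 and 3447 CPM in EV tumours. All 8 p95HER2 tumours exceeded the EV median, yet the rise was small (log2 fold change 0.14 with an SE of 0.04, BH-adjusted p = 0.0441 by edgeR). The Gapdh call depended on single tumours. It was kept without EV 1, EV 3, EV 8, p95HER2 4 or p95HER2 8 and lost without any of the other 13, with edgeR BH-adjusted p-values no higher than 0.0871 without p95HER2 7.

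None of the remaining enzymes of lower glycolysis passed the test. Tpi1 had 0.03 (SE 0.05, adjusted p = 0.724), Pgam1 0.0041 (SE 0.05, adjusted p = 0.975), Eno1 0.03 (SE 0.05, adjusted p = 0.750) and Pkm, the pyruvate kinase, 0.02 (SE 0.04, adjusted p = 0.794) on the log2 scale. Eno2, the neuronal enolase, was scarce, at 1.73 ± 0.359 CPM in p95HER2 tumours and 1.52 ± 0.243 CPM in EV tumours (SD, n = 8 and 10), with 0.18 (SE 0.14, adjusted p = 0.432). Pgk1, which makes the first ATP of the pathway, had 783, 869 and 962 CPM in p95HER2 tumours, against 785, 877 and 1033 CPM in EV tumours (log2 fold change -0.03 with an SE of 0.05, BH-adjusted p = 0.797 by edgeR). Its highest tumour was EV 3, and the p95HER2 values lay within the EV values except for p95HER2 6, just below them.

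**Figure D2:**
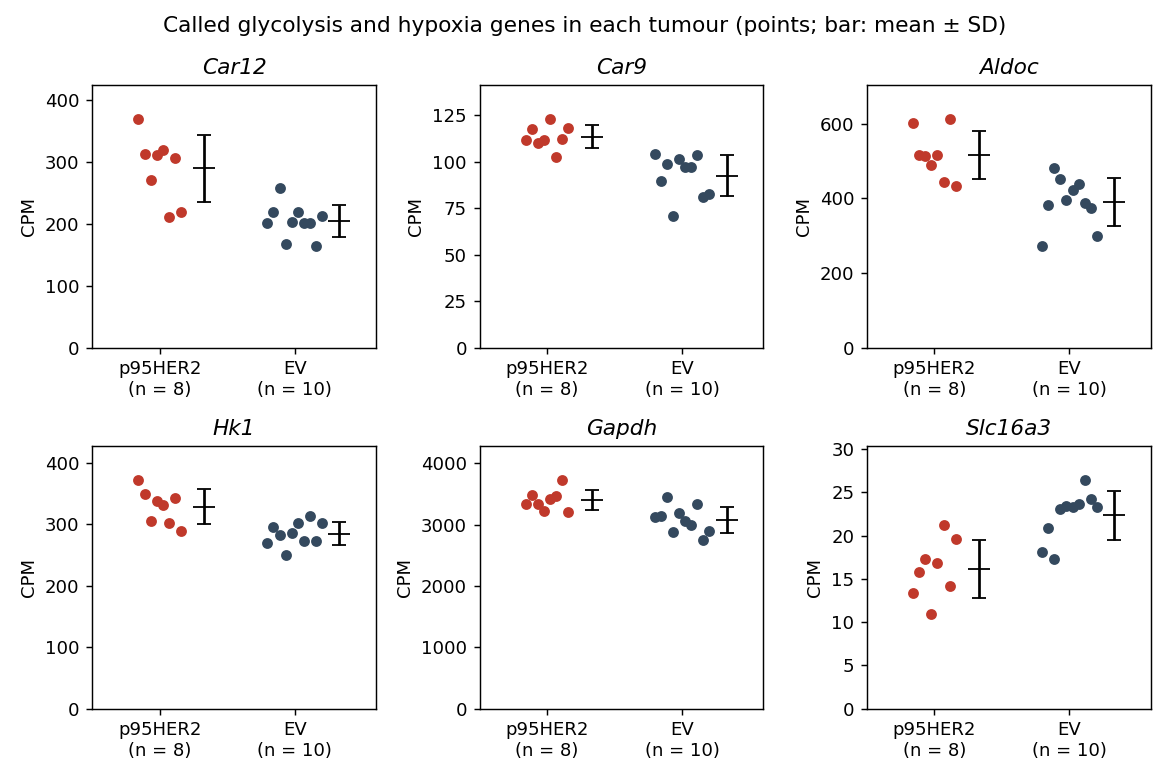
CPM (vertical axes, from 0) of the 6 called genes in each of 8 p95HER2 tumours (red) and 10 EV tumours (dark), with the mean ± SD beside the points. Car9 shows 7 p95HER2 tumours above the highest EV tumour, Slc16a3 shows 5 below the lowest, and the groups overlap in each panel.

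Ratios of related genes within a tumour do not depend on how libraries are scaled. Of 9 pairs compared by exact permutation (two-sided, all 43758 ways to assign the tumours), 1 passed after BH adjustment over the pairs. The Aldoc to Aldoa count ratio had a lowest, median and highest value of 0.272, 0.339 and 0.388 in p95HER2 tumours, against 0.185, 0.242 and 0.316 in EV tumours. The log2 ratio differed by 0.43 (exact p = 0.00201, adjusted 0.0181), and all 8 p95HER2 tumours were above the EV median. The P4ha2 to P4ha1 ratio differed by 0.15 (exact permutation p = 0.0261, adjusted 0.117), with 7 of 8 p95HER2 tumours above the EV median. This pair passed without p95HER2 4 or without EV 8 (adjusted exact permutation p = 0.0410 and 0.0429). The log2 ratio of Hk2 to Hk1 differed by -0.20, with 0 of 8 p95HER2 tumours above the EV median, and that of Car12 to Car9 by 0.19, neither past the threshold (exact permutation p = 0.0795 and 0.0863, both adjusted 0.194). The pairs Pfkp and Pfkl, Pfkfb4 and Pfkfb3, Eno2 and Eno1, Egln3 and Egln1, and Bnip3l and Bnip3 had exact permutation p-values from 0.226 to 0.786.

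**Figure D3:**
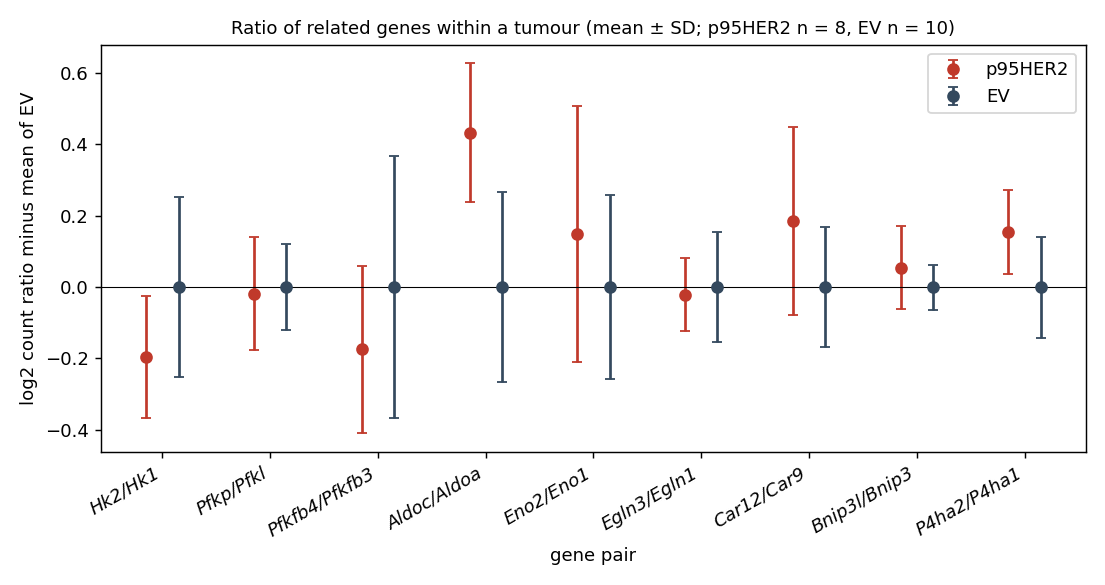
Log2 count ratio of 9 pairs of related genes (vertical axis), shown relative to the mean of EV; points are means and bars SD over 8 p95HER2 tumours (red) and 10 EV tumours (dark). Aldoc to Aldoa stands 0.43 above EV, and the bars of the other pairs overlap more.

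Slc16a3 (chromosome 11, 120948480 to 120960868, mm10), the lactate and proton carrier of glycolytic cells, was the single gene of the 36 called lower. Its lowest, median and highest values were 10.9, 16.3 and 21.3 CPM in p95HER2 tumours, against 17.2, 23.3 and 26.4 CPM in EV tumours. All 8 p95HER2 tumours lay below the EV median and 5 below the lowest EV tumour, with p95HER2 4 lowest and p95HER2 6 highest (log2 fold change -0.47 with an SE of 0.11, BH-adjusted p = 0.00981 by edgeR). The call stood in each of the 18 fits that left out 1 tumour, with edgeR BH-adjusted p-values no higher than 0.0234. Ldha, the muscle-type subunit of lactate dehydrogenase, had 1429, 1521 and 1704 CPM in p95HER2 tumours, against 1448, 1529.8 and 1704 CPM in EV tumours (log2 fold change -0.01 with an SE of 0.04, BH-adjusted p = 0.866 by edgeR). Its group medians differed by less than the spread of either group. Pdk1, a kinase that inhibits pyruvate dehydrogenase in the mitochondrion, had 119, 164 and 170.2 CPM in p95HER2 tumours, against 131, 141 and 152 CPM in EV tumours (log2 fold change 0.09 with an SE of 0.07, BH-adjusted p = 0.446 by edgeR). The p95HER2 tumours fell into 5 values above the highest EV tumour and 3 values near or below the lowest, in p95HER2 3, 6 and 8.

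Of the 4 genes of oxygen sensing none was called by edgeR, DESeq2 or limma voom, where edgeR called 10.2% of all genes. With so few genes, no call lies near that share. At an unadjusted p under 0.05 there were 0 of the 4 by edgeR, 0 by DESeq2 and 1 by limma voom. By edgeR 4502 of all 17123 genes were under it. Hif1a, which encodes the alpha subunit of hypoxia-inducible factor 1, had 139.6, 169 and 189 CPM in p95HER2 tumours, against 139, 164 and 181 CPM in EV tumours (log2 fold change 0.05 with an SE of 0.06, BH-adjusted p = 0.60 by edgeR). Its level is known to be set mainly by protein stability, which these data do not measure. Egln3, a prolyl hydroxylase that the factor itself induces, had 291, 353 and 401 CPM in p95HER2 tumours, against 261, 352 and 421 CPM in EV tumours (log2 fold change 0.05 with an SE of 0.08, BH-adjusted p = 0.723 by edgeR). The groups covered nearly the same range for both genes. Egln1, the main oxygen sensor, had a log2 fold change of 0.07 (SE 0.05, adjusted p = 0.405). Ankrd37, a small target of the factor, had -0.23 (SE 0.12, adjusted p = 0.215), but its exons share bases with Lrp2bp and Ufsp2 on the other strand, and the strand setting of the counts was not given in the sources used here, which leaves the value of Ankrd37 uncertain.

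The carbonic anhydrase genes Car12 and Car9 had the smallest adjusted p-values of the 36 genes, and Car12 the largest rise. Both encode membrane enzymes with an active site outside the cell, where they hydrate carbon dioxide to bicarbonate and a proton. Car12 (chromosome 9, 66713686 to 66766845, mm10) had 211, 308 and 369 CPM in p95HER2 tumours, against 164, 203 and 257 CPM in EV tumours. All 8 p95HER2 tumours were above the EV median and 6 above the highest EV tumour, while p95HER2 6 and 8 lay among the EV tumours at 211 and 219 CPM (log2 fold change 0.50 with an SE of 0.10, BH-adjusted p = 0.00427 by edgeR). Car9 (chromosome 4, 43506966 to 43513729, mm10), a classic hypoxia marker, had 103, 112 and 123 CPM in p95HER2 tumours, against 70.7, 97.0 and 104 CPM in EV tumours. Here 7 of 8 p95HER2 tumours were above the highest EV tumour, EV 1, and p95HER2 6 lay just below it (log2 fold change 0.29 with an SE of 0.06, BH-adjusted p = 0.00692 by edgeR). EV 4 was lowest, at 70.7 CPM, and without it the spread of the EV tumours would narrow to 81.2 CPM and above.

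None of the 3 secreted signals was called by edgeR, DESeq2 or limma voom, where edgeR called 10.2% of all genes. Vegfa, the main angiogenic growth factor, had 339, 439 and 515 CPM in p95HER2 tumours, against 259.6, 381 and 470.4 CPM in EV tumours (log2 fold change 0.17 with an SE of 0.09, BH-adjusted p = 0.254 by edgeR). The lowest tumour was EV 2 and the highest p95HER2 5, and 7 of 8 p95HER2 tumours exceeded the EV median. Adm, which encodes the vasodilator adrenomedullin, was scarce at 2.30 ± 0.466 CPM in p95HER2 tumours and 3.01 ± 1.05 CPM in EV tumours (SD, n = 8 and 10), with a log2 fold change of -0.39 (SE 0.19, adjusted p = 0.208). Angptl4, a lipase inhibitor that also responds to fatty acids, varied most of the 36 genes. Its coefficient of variation was 44.2% among p95HER2 tumours and 49.2% among EV tumours, with a log2 fold change of -0.25 (SE 0.31, adjusted p = 0.663).

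The mitophagy receptors Bnip3 and Bnip3l, which mark mitochondria for removal under low oxygen, were not called, and neither was Ndrg1. Bnip3 had 96.0, 114 and 126 CPM in p95HER2 tumours, against 95.9, 112 and 130.4 CPM in EV tumours (log2 fold change -0.02 with an SE of 0.07, BH-adjusted p = 0.916 by edgeR), and Bnip3l had 0.04 (SE 0.06, adjusted p = 0.750). Ndrg1, a stress and hypoxia gene, had 185, 273 and 320.2 CPM in p95HER2 tumours, against 126, 213 and 288 CPM in EV tumours. Its log2 fold change of 0.33 was among the largest, but the spread was wide (SE 0.14, edgeR BH-adjusted p = 0.142) and EV 4 was the lowest tumour, at 126 CPM.

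The 4 enzymes of collagen folding and chromatin had positive values. By edgeR and DESeq2 none was called, with 2 at an unadjusted p under 0.05 in each, and limma voom called 2 higher, P4ha2 and Ero1l. Of all 17123 genes 4502 had an unadjusted p under 0.05 by edgeR. P4ha1 and P4ha2, subunits of collagen prolyl hydroxylase, had 0.07 (SE 0.06, adjusted p = 0.541) and 0.22 (SE 0.08, adjusted p = 0.0711). Ero1l, the oxidase that forms disulfide bonds in the endoplasmic reticulum, had 0.24 (SE 0.09, adjusted p = 0.0965), and the histone demethylase Kdm3a 0.10 (SE 0.06, adjusted p = 0.324). P4ha2 was called higher without EV 8 or without p95HER2 4 (edgeR BH-adjusted p = 0.0187 and 0.0137), and Ero1l without EV 8 (edgeR BH-adjusted p = 0.0497).

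The same few tumours held many of the lowest and highest values. Coefficients of variation ran from 4.94% for Gapdh to 44.2% for Angptl4 in p95HER2 tumours and from 4.17% for Pgam1 to 49.2% for Angptl4 in EV tumours. EV 4 was the lowest EV tumour for 13 of the 36 genes, among them Slc2a1, Hk1, Hif1a, Car9, Bnip3, Ndrg1 and Ero1l, and it also had the lowest endothelial marker level of the EV tumours, 3.39. EV 8 was highest for 12 genes and EV 3 for 11, with EV 3 leading for Gapdh, Pgk1, Ldha, Aldoc and Car12. In the p95HER2 group p95HER2 4 was lowest for 11 genes and p95HER2 8 for 10, while p95HER2 5 was highest for 10 and p95HER2 7 for 9. The tumour p95HER2 8 also had the highest erythroid marker level, 4.36. With EV 4 and p95HER2 1 left out together, an alternative added after the data were seen, Car12, Car9 and Aldoc stayed higher and Slc16a3 lower, while Hk1 and Gapdh lost their calls (edgeR BH-adjusted p = 0.0514 and 0.0992).

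**Figure D4:**
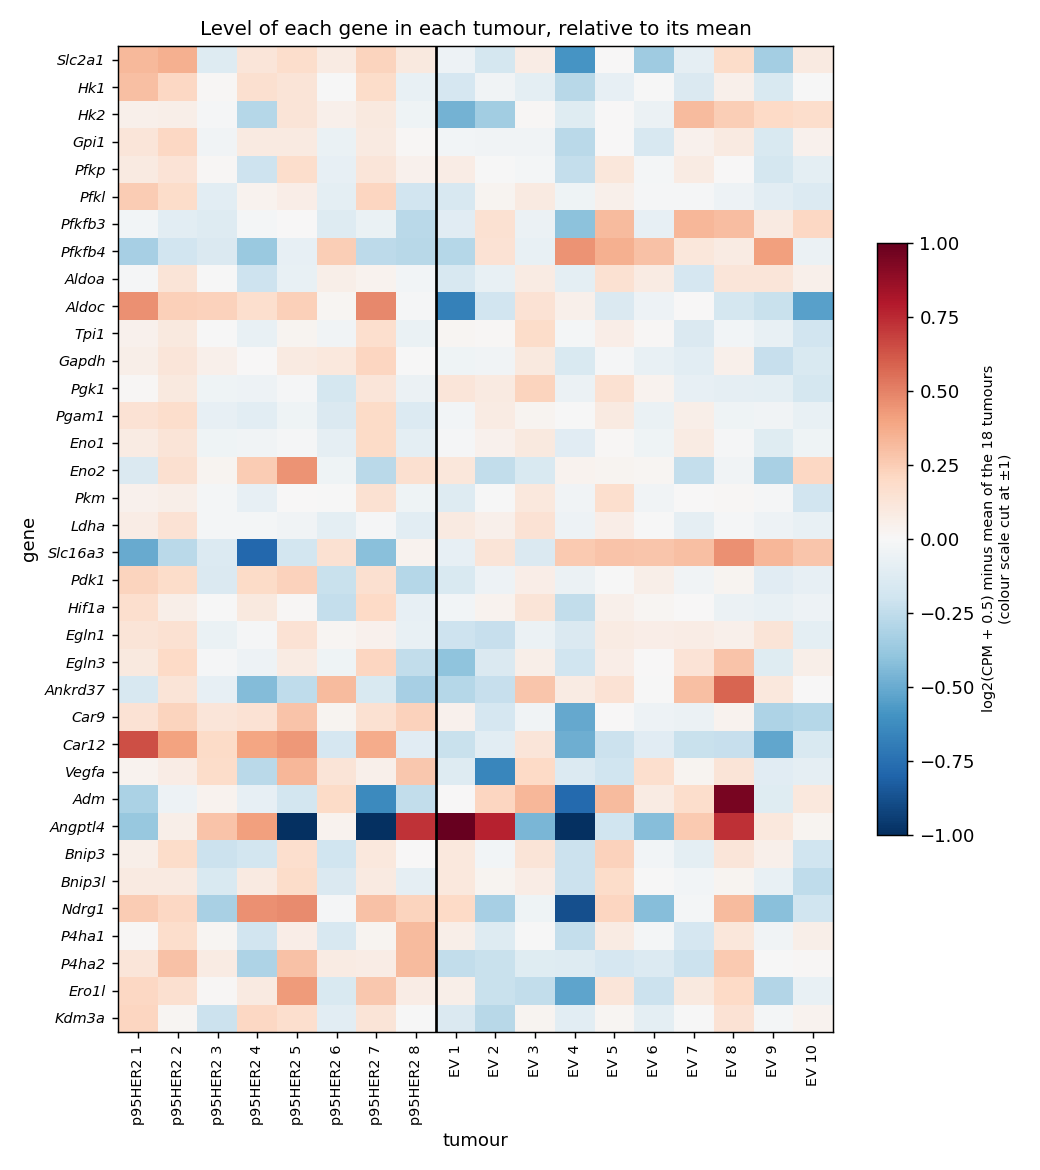
Level of each of the 36 genes (rows) in each tumour (columns, 8 p95HER2 left of the line and 10 EV right of it), as log2(CPM + 0.5) minus the gene's mean over the 18 tumours, with colours ending at ±1. The columns of EV 4 and p95HER2 4 hold many low values, Angptl4 varies most, and the lower glycolytic enzymes are pale throughout.

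For macrophages 8 of 15 markers were lower and 1 higher in p95HER2 tumours, none was at 0, and the summed level was 636 to 1134 CPM in p95HER2 tumours and 851 to 1649 CPM in EV tumours. Other marker lists moved with group as well. Of 7 adipocyte markers tested 6 were called lower, with a median log2 fold change of -1.95 and a summed level of 9.73 to 37.4 CPM in p95HER2 tumours and 29.4 to 133 CPM in EV tumours. Of 10 T cell markers 2 were called lower and all 10 had negative values, with a median of -1.07 and a summed level of 9.01 to 39.5 CPM in p95HER2 tumours and 16.3 to 89.4 CPM in EV tumours. The part of adipocytes and T cells in these results was not tested. In bulk tissue fewer cells of a type and less RNA per cell cannot be told apart. With the macrophage level (mean log2(CPM + 0.5) of the list) as a covariate none of the 36 genes was called by edgeR, 3 had an unadjusted p under 0.05, and the calls over all genes fell to 137 higher and 28 lower. The macrophage level itself differed with group, with a median of 4.95 in p95HER2 tumours and 5.49 in EV tumours. A fit with both terms is therefore less able to call a group difference, and a lost call does not show why it was lost. The log2 fold change at equal macrophage level was -0.16 for Slc16a3, 0.26 for Car12, 0.27 for Aldoc, 0.13 for Hk1, 0.11 for Gapdh and 0.30 for Car9 (edgeR BH-adjusted p from 0.145 to 0.618). Without the covariate the values of these genes were, in the same order, -0.47, 0.50, 0.40, 0.21, 0.14 and 0.29. The part of macrophages in these results was not tested. Over the tumours at equal group, Slc16a3 was the single gene of the 36 called for the macrophage level. It rose by 0.62 log2 units per unit (edgeR BH-adjusted p = 0.0368). Of all genes 2.58% rose with that level and 0.14% fell, so 1 call among 36 is near the share of all genes. At an unadjusted p under 0.05 by edgeR there were 4 of the 36 and 2167 of all 17123 genes. Besides Slc16a3 these were Car12, Pdk1 and Kdm3a, with slopes of -0.44, -0.30 and -0.27. The Slc16a3 call was lost without EV 3, p95HER2 1, 4, 6 or 8, and with each marker scaled to the same SD.

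All 15 skeletal muscle markers had negative values, with a median log2 fold change of -1.06, but none was called by edgeR, DESeq2 or limma voom. In edgeR, where 4502 of all 17123 genes had an unadjusted p under 0.05, so did 4 of these markers. Their summed level was 420 to 3953 CPM in p95HER2 tumours and 138 to 7802 CPM in EV tumours. The mean log2(CPM + 0.5) of these markers varied most of the tissue lists, from 4.32 to 7.43 in p95HER2 tumours and from 2.71 in EV 1 to 8.41 in EV 9. At equal group, Pfkfb4, Slc16a3 and Aldoa rose with the muscle level, by 0.13, 0.12 and 0.05 log2 units per unit (edgeR BH-adjusted p = 0.0256, 0.0262 and 0.0490), where 3.77% of all genes rose and 4.46% fell. No other gene of the 36 was called. The number fell to 1 without EV 1, EV 9 or p95HER2 4, and to 0 without p95HER2 6. The muscle isozymes outside the 36, chosen after their values were seen, followed it far more steeply: Pgam2 by 1.17, Eno3 by 0.93, the insulin-responsive transporter Slc2a4 by 0.91 and Pfkm by 0.38 (edgeR BH-adjusted p from 2.06e-13 to 8.59e-07). With the muscle level as a covariate Car12, Car9, Aldoc and Hk1 stayed called higher and Slc16a3 lower, P4ha2 was called higher as well, and Gapdh was not called (edgeR BH-adjusted p = 0.0686).

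**Figure D5:**
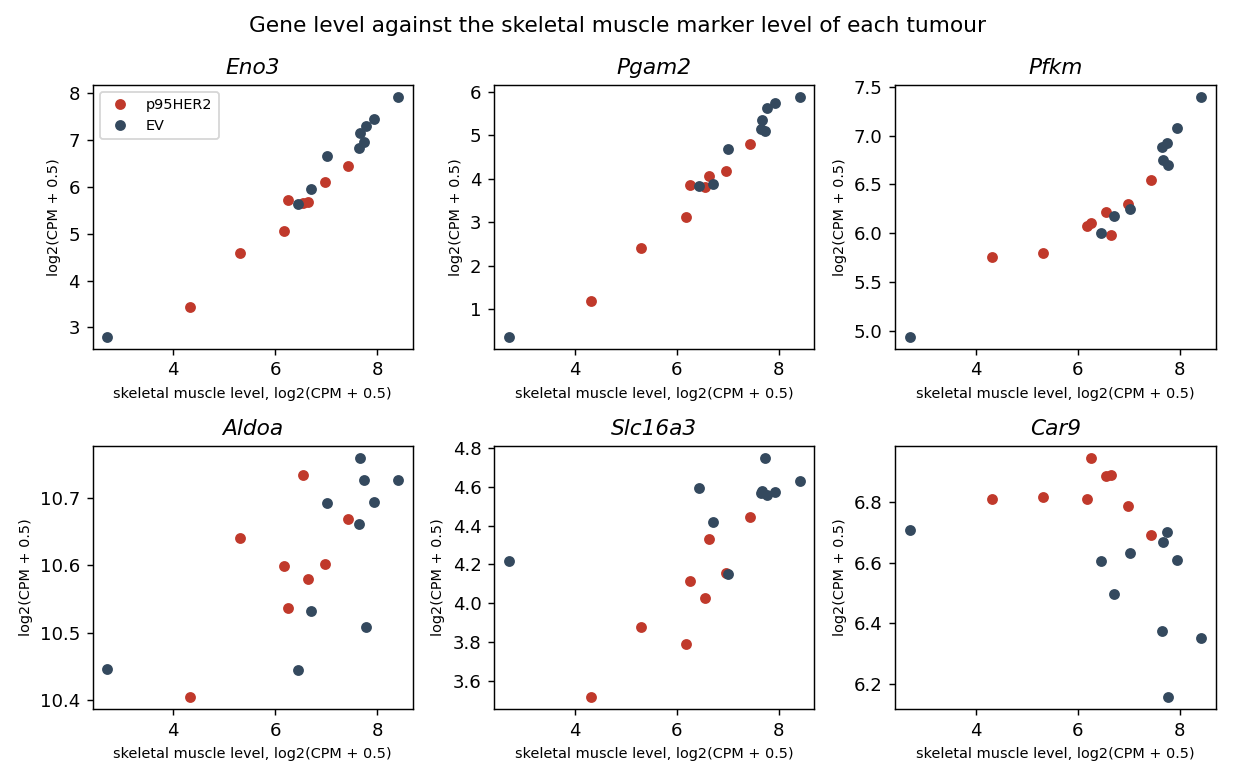
Level of 6 genes, log2(CPM + 0.5), against the mean level of 15 skeletal muscle markers in the same tumour (both axes log2); p95HER2 tumours red, EV tumours dark. The muscle isozymes Eno3, Pgam2 and Pfkm climb with the marker level, Slc16a3 and Aldoa follow it weakly, and Car9 does not climb with it.

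Against the endothelial level at equal group, Angptl4 alone of the 36 genes was called, rising by 2.62 log2 units per unit (edgeR BH-adjusted p = 0.0103), where 0.514% of all genes rose and 0.00584% fell. The call was lost without EV 4 or without p95HER2 7. Endothelial levels ran from 3.48 to 4.09 in p95HER2 tumours and from 3.39 to 4.22 in EV tumours. Against the level of 29 other hypoxia genes no gene of the 36 was called, nor was any of the 17123 (edgeR), and at an unadjusted p under 0.05 there were 3 of the 36 and 838 of all genes. The slope was positive for 28 of the 36, with a median of 0.41 against -0.06 over all genes. This level ran only from 5.83 to 5.96 in p95HER2 tumours and from 5.82 to 6.06 in EV tumours. Even the 29 genes that make it up were not called, so the lack of calls says little about the 36.

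In the neighbouring pathways the share called in either direction was 13.3% of further glycolysis genes, 8.33% of genes of pyruvate entry, 10.0% of pentose phosphate genes and 3.45% of other hypoxia genes, beside 10.2% of all genes. Of 15 further glycolysis genes tested edgeR called 2 lower and none higher, and limma voom and DESeq2 called none higher either. By edgeR 7 of the 15 had an unadjusted p under 0.05, beside 4502 of all 17123 genes. Tigar, a phosphatase that restrains phosphofructokinase, had 9.99, 10.6 and 11.3 CPM in p95HER2 tumours, against 11.6, 14.2 and 15.3 CPM in EV tumours, with every p95HER2 tumour below the lowest EV tumour (log2 fold change -0.40 with an SE of 0.06, BH-adjusted p = 0.000443 by edgeR). It was called in each of 33 alternative fits. Hk3, a hexokinase of myeloid cells, had 2.0, 4.63 and 5.70 CPM in p95HER2 tumours, against 4.63, 6.94 and 17.7 CPM in EV tumours (log2 fold change -0.76 with an SE of 0.23, BH-adjusted p = 0.0424 by edgeR), and at equal macrophage level its log2 fold change was -0.06 (adjusted p = 0.947). The Hk3 call was lost in 11 of the 18 fits that left out 1 tumour, with edgeR BH-adjusted p-values reaching 0.0800 without p95HER2 1, and was kept without EV 1, 3, 6, 7, 8, 10 or p95HER2 6. Of 12 genes of pyruvate entry into mitochondria 1 was lower, the carrier subunit Mpc1, at -0.25 (SE 0.05, adjusted p = 0.00451). Of 10 pentose phosphate genes 1 was higher, H6pd, the dehydrogenase of the endoplasmic reticulum, at 0.28 (SE 0.07, adjusted p = 0.0118).

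Of the 29 other hypoxia genes 1 was higher, the lipoprotein receptor Vldlr, with 112, 147 and 169 CPM in p95HER2 tumours, against 107, 114 and 136 CPM in EV tumours (log2 fold change 0.31 with an SE of 0.07, BH-adjusted p = 0.00861 by edgeR), and none was lower. The median log2 fold change of that list was -0.03. Of 14 regulators of the hypoxia-inducible factors tested none was called by edgeR or DESeq2, with 3 at an unadjusted p under 0.05 in each, while limma voom called 1 higher and 1 lower. By edgeR 4502 of all 17123 genes had an unadjusted p under 0.05. The smallest adjusted p of the 14 regulators was that of Hif1an, an asparagine hydroxylase that restrains the factor, at -0.14 (SE 0.05, adjusted p = 0.0956). With the macrophage level as a covariate the log2 fold changes were -0.26 for Mpc1, 0.12 for H6pd and 0.14 for Vldlr. Without it they were -0.25, 0.28 and 0.31. None of the 3 was called with the covariate (edgeR BH-adjusted p = 0.0973, 0.605 and 0.576), and the part of macrophages was not tested.

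Glycolytic genes have many processed pseudogenes. Rows named after Aldoa, Gapdh, Pgk1, Pgam1, Eno1 or Ldha held at most 0.817% of the counts of the gene itself, the largest share for Pgam1, and Tpi1 and Pkm had no such row. Pseudogenes listed under unrelated names were not searched, and reads that a counter discarded as matching several places are not counted in these shares. The shares therefore do not show that pseudogene counts are small. Exons of Pfkp overlap Pitrm1 on the other strand, whose counts came to 35.5% of those of Pfkp, so the value of Pfkp is uncertain where the counting ignored strand. Of the called genes, Car9, Gapdh and Hk1 share exon bases with a gene on the other strand, whose counts came to 3.0%, 0.0698% and 0.489% of their own.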

How the data were processed

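RNA was sequenced from 18 tumours, 8 p95HER2 and 10 EV, numbered in accession order within a group. Per the labels' protocols, libraries were directional and enriched for mRNA. The deposited file holds the authors' raw read counts for each Ensembl gene in each tumour, not normalized. The submitters' processing notes name STAR 2.5, HTSeq 0.6.1 and mm10. Neither strand option nor annotation release was given in the sources used here. Coordinates are 1-based GENCODE positions of the same build. The table has 54532 genes, 22778 at 0 in every library, and no row that names no gene.

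Genes were filtered with filterByExpr (minimum count 10, minimum total 15), scaled by TMM and compared with edgeR 4.0.16 (R 4.3.3) by a robust quasi-likelihood test. P-values were adjusted by the Benjamini-Hochberg method over all 17123 genes tested, with the threshold for a call at 0.05. Every adjusted p of a gene is from this edgeR test unless another tool is named. A list level averages log2(CPM + 0.5) over the genes of the list, and its coefficient was fitted beside group. Within-tumour ratios had 0.5 counts added and were tested by an exact permutation test written with numpy 2.4.6. CPM per kilobase used the union of a gene's exons. The edgeR script was tested on simulated data. Library totals of 32686558 to 38464541 counts make counting error small beside the spread between tumours, except for genes of a few CPM.

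Alternatives were RLE scaling, library totals, other filters, DESeq2 1.42.0, limma voom 3.58.1 with quality weights, list levels as covariates, thinning of all libraries to the smallest one, a fit without chromosome 5 genes, and fits without each tumour in turn or without both p95HER2 4 and EV 1. Added after the data were seen were a fit without both p95HER2 1 and EV 4 and one with muscle and macrophage levels together. The 36 genes and all lists were chosen with earlier results of these data known. By the rule for named genes, values are given in each group for the called genes and for Slc2a1, Hk2, Pgk1, Ldha, Pdk1, Vegfa, Bnip3, Egln3 and Hif1a, and of each neighbouring list for its called genes or the gene of smallest adjusted p. Those of Pfkfb3, Pfkfb4, Ndrg1, Eno2 and Adm were added after their values were seen.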

Additional observations from a re-analysis of the deposited data

Results flagged for a closer look

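Of 90 sets of values examined, 36 genes and 9 ratios in each group, 7 held a tumour far from the others of its group, where chance alone gives about 1 in 20. In each the gap to the nearest tumour took an unusually large part of the group's whole range. Hk2 was at 67.4 CPM in p95HER2 4, with the other p95HER2 tumours at 80.1 to 90.1 CPM. P4ha2 was at 55.4 CPM in the same tumour, against 72.3 to 85.9 CPM in the others. The log2 ratio of Bnip3l to Bnip3 was highest there too, at 0.83 with the others from 0.46 to 0.61. This tumour also had the lowest skeletal muscle and macrophage levels of its group, 4.32 and 4.49 (mean log2(CPM + 0.5) of the markers). Pfkfb4 was at 8.34 CPM in p95HER2 6, where the other p95HER2 tumours had 5.28 to 6.55 CPM, and its log2 ratio to Pfkfb3 was -2.79 there, with the others from -3.55 to -3.20. That tumour had the highest skeletal muscle level of its group, 7.43, and the part of these levels was not tested. Among EV tumours EV 8 stood apart for Adm, at 5.46 CPM with the others from 1.30 to 3.39 CPM, and for P4ha2, at 82.6 CPM with the others from 57.9 to 69.2 CPM.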

How the results depend on the processing

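Of the 36 genes, 23 kept their sign in all 33 alternatives each, and no called gene changed sign. The counts moved most with the macrophage level as a covariate, to 137 higher and 28 lower of all genes and to 0 higher and 0 lower of the 36, and with the skeletal muscle and macrophage levels together (added after the data were seen), to 230 and 75 of all genes and again to 0 and 0. DESeq2 called 1156 genes lower, and 2 of the 36 lower. Limma voom called 8 of the 36 higher and 2 lower, a filter at 1 CPM in 8 tumours 2 lower, and the fit without EV 1 and p95HER2 4 together 2 lower. Over all genes the main fit called 981 higher and 762 lower. Limma voom called more of all genes than that in each direction, so its larger counts were not confined to the 36. The filter at 1 CPM called fewer of all genes in each direction. The fit without EV 1 and p95HER2 4 together called more of all genes lower. Without EV 4 and p95HER2 1 together (added after the data were seen) 465 of all genes were lower, and of the 36 genes 3 were higher and 2 lower. With each tumour left out in turn 792 to 1201 genes were higher and 489 to 1130 lower, the lowest number without p95HER2 2, and of the 36 genes 4 to 8 were higher (8 without EV 8) and 1 to 2 lower (2 without EV 1, 3, 4, 10 or p95HER2 6). Calls for the skeletal muscle, macrophage and endothelial level then numbered 0 to 4, 0 to 1 and 0 to 2 (2 without EV 1 or EV 3), and with markers scaled to SD 1 the macrophage level had 0. The log2 ratio differences then ran from -0.05 to 0.015 for Pfkp to Pfkl, from -0.05 to 0.0049 for Egln3 to Egln1, and from 0.13 to 0.18 for P4ha2 to P4ha1, of which the last passed without p95HER2 4 (0.18) or EV 8 (0.18).

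The other 13 genes changed sign in 56 fits, none past the threshold. Angptl4 had a main log2 fold change of -0.25 with an SE of 0.31, and the other 12 lay between -0.03 and 0.10. With the macrophage level the log2 fold changes were Hk2 0.051, Pfkl -0.011, Tpi1 -0.034, Pgam1 -0.015, Eno1 -0.0090, Pdk1 -0.080, Hif1a -0.044, Angptl4 0.17, Bnip3l -0.018 and Kdm3a -0.052. With the skeletal muscle and macrophage levels they were Hk2 0.093, Pfkl -0.0091, Tpi1 -0.035, Pgam1 -0.018, Eno1 -0.015, Pdk1 -0.081, Hif1a -0.053, Angptl4 0.17, Bnip3l -0.031 and Kdm3a -0.049. With the skeletal muscle level they were Hk2 0.078, Aldoa 0.019 and Pgam1 -0.0036, with the other hypoxia level Hk2 0.029, Aldoa 0.025, Pgam1 -0.010 and Bnip3 0.010, and with the endothelial level Pgam1 -0.018 and Angptl4 0.037. Limma voom gave Hk2 0.013, Ldha 0.0017 and Bnip3 0.0062, library totals gave Pgam1 -0.0021, the fit without EV 4 and p95HER2 1 together gave Pgam1 -0.017, and that without EV 1 and p95HER2 4 together gave Bnip3 0.020. Over the fits without 1 tumour the values ran Hk2 -0.050 to 0.037, Aldoa -0.044 to 0.0033, Pgam1 -0.024 to 0.025, Ldha -0.036 to 0.0016 and Bnip3 -0.042 to 0.014. The cause of these changes was not tested.

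No paired analysis was possible because the labels and columns carry no replicate numbers that link a p95HER2 tumour with an EV tumour. Group SEs of the 36 genes ran from 0.04 to 0.31 on the log2 scale. Changes well above the SE of a gene could still miss the threshold. Slc2a1 at 0.27 (SE 0.09) and Pfkfb4 at -0.35 (SE 0.11) were not called, while Gapdh at 0.14 (SE 0.04) was. A gene that was not called is therefore not shown to be unchanged. The median log2 fold change of all genes was -0.01 under TMM, RLE and library totals alike. Genes of a few CPM (Eno2, Adm, Angptl4 and Pfkfb4) rest on the fewest counts.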
